A study of Homo sapiens with 6 samples.

Results

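The genes described are 48 cell cycle and DNA replication genes, taken by symbol from a list that sets no threshold on their values, although earlier results of these data were known when it was drawn up. They are 24 genes listed for G1 to the course of DNA synthesis (G1/S genes) and 24 listed for the time before and during mitosis (G2/M genes). MYBL2 is listed with the G1/S genes, although its product B-MYB acts later in the cycle. Each symbol matched 1 of the 78652 genes in the tables, and all 48 passed the filter on low counts that left 17625 genes to test. RNA was sequenced from THP-1, a human monocytic leukaemia line, carrying an empty vector (EV) or a PTX4 overexpression construct (PTX4-OE) after stable transduction, with 3 biological replicates of each numbered 1 to 3. Both groups were grown in the same medium, and PTX4 codes for the long pentraxin called pentraxin 4. No source used here gives the promoter of the construct, the number of transduced clones or what replicates of 1 number share, so p-values measure only the spread between these libraries.

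Cells pass from G1 into S phase when cyclin D with CDK4 and cyclin E with CDK2 phosphorylate the retinoblastoma family, which releases E2F transcription factors to raise the genes of origin licensing, DNA replication and nucleotide synthesis. Later in the cycle, B-MYB and FOXM1, bound with the MuvB complex, raise the genes of mitosis, among them cyclin B, the Polo and Aurora kinases, the spindle checkpoint and the kinesin motors. E2F factors are known to bind promoters at E2F sites, while the mitotic genes carry the cell cycle genes homology region (CHR), often downstream of CCAAT boxes bound by NF-Y. THP-1 cells divide continuously in culture, so both groups of genes are normally on.

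The G1/S and the G2/M genes differed in the shares of promoters that held each motif, and 4 promoters of each group were picked to show that contrast. Windows from 250 bases before to 50 after the RefSeq start (GRCh38.p14) were matched for 37 of the 48 genes, 18 G1/S and 19 G2/M. Those not matched were CCND1, CCND2, CCNE2, CDK2, MCM4, MCM5, FOXM1, AURKA, BIRC5, TPX2 and UBE2C. The E2F type motif was searched as TTTCCCGC, TTTCGCGC, TTTGCCGC or TTTGGCGC, the CHR as TTTGAA or TTCGAA and the CCAAT box as CCAAT, each on both strands, and a gene with several windows counted once if any held it. In the lines that follow capitals mark these motifs as read on the gene's strand, so GCGGGAAA, GCGCGAAA and GCGGCAAA are E2F type motifs, TTCAAA is a CHR and ATTGG is a CCAAT box of the other strand. Each stretch lies before the RefSeq start and outside the exons of GENCODE 44.
E2F1: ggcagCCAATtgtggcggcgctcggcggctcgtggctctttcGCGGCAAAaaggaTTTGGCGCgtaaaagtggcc
MCM6: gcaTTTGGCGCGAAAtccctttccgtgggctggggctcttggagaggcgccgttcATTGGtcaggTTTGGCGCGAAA
PCNA: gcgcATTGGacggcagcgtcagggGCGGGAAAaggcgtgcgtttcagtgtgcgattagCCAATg
CDT1: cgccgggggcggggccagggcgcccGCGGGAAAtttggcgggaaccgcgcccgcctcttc
CCNB2: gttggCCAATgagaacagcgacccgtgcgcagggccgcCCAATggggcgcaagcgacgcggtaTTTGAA
CDC20: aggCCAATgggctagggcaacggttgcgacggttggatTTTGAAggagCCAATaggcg
MKI67: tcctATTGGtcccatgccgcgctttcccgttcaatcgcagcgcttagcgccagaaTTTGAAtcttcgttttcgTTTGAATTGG
KIF11: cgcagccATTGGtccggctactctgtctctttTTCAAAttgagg

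The G1/S stretches are E2F1 at chr20:33686386-33686460 (minus strand), MCM6 at chr2:135876522-135876598 (minus), PCNA at chr20:5126642-5126705 (minus) and CDT1 at chr16:88803729-88803788 (plus). The G2/M stretches are CCNB2 at chr15:59105054-59105122 (plus), CDC20 at chr1:43358878-43358935 (plus), MKI67 at chr10:128126443-128126525 (minus) and KIF11 at chr10:92593070-92593113 (plus). In MCM6 a motif of each strand overlaps within TTTGGCGCGAAA, and in MKI67 the last TTTGAA shares bases with ATTGG. An E2F type motif was found in 12 of 18 G1/S genes (66.7%), in 2 of 19 G2/M genes (10.5%, CDK1 and NUSAP1) and in 3.99% of all 27305 genes with a window. A CHR was found in 14 of 19 G2/M genes (73.7%), in 1 of 18 G1/S genes (5.56%, MCM6) and in 19.5% of all genes. The CCAAT box was found in 17 of 19 G2/M genes (89.5%), 11 of 18 G1/S genes (61.1%) and 39.7% of all genes. Both a CHR and a CCAAT box were present in the same window in 13 of 19 G2/M genes (68.4%), against 7.85% of all genes. A match is a description of these letters, and binding was not measured.

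Libraries held 29670641 to 37718207 expected counts, and the members 326 to 28792 in each library. PTX4 checked the labels, with 0, 3 and 4 expected counts in EV and with 24633, 14398 and 15782 in PTX4-OE. Of 10 monocytic markers, 9 passed the filter, and the summed level of the list was 626 to 689 TPM (a level scaled for transcript length and depth) in EV and 596 to 708 TPM in PTX4-OE. The markers of T cells (5 genes), B cells (5), erythroid cells (5) and epithelial cells and fibroblasts (8) each summed to 3.27 TPM or less in every library. Within those lists CD2, CD3D, CD3E, CD3G, MS4A1, HBB, EPCAM, KRT19, COL1A2 and DCN were listed at 0 in all 6 libraries. PTX4-OE replicate 1 stood apart in its share of mitochondrially encoded counts, 2.79% against 4.75% to 5.91% in the other 5 libraries.

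On the TPM scale, which allows genes to be compared, CDC20 was the most abundant member. CDC20 (ENSG00000117399.14, chromosome 1, 43358981 to 43363203, plus strand, GRCh38) encodes the activator of the anaphase promoting complex in mitosis, and its level was 372 ± 136 TPM in EV and 403 ± 149 TPM in PTX4-OE (SD, n = 3 each). TYMS (thymidylate synthase) followed with 267 ± 76.8 and 277 ± 78.0 TPM, MCM7 with 248 ± 69.9 and 267 ± 81.3 TPM, MCM3 with 227 ± 73.3 and 240 ± 84.0 TPM, and PCNA, the sliding clamp of DNA polymerases, with 192 ± 72.1 and 196 ± 65.4 TPM. These 5 genes held 31.9% of the summed TPM of the 48, and their order was the same in each of the 6 libraries, although the ranges of neighbours over libraries overlapped. TYMS overlaps ENOSF1 on the opposite strand, and no source used here says whether reads were counted by strand, so the RNAs of that overlap cannot be told apart.

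At the other end, CCND2 (cyclin D2) had 3.01 ± 0.922 TPM in EV and 2.76 ± 0.671 TPM in PTX4-OE. E2F2, a second activating E2F, had 7.61 ± 1.29 and 8.14 ± 1.12 TPM, and CDC25C, the phosphatase that activates CDK1 at mitotic entry, had 9.51 ± 2.00 and 8.78 ± 1.40 TPM. Those 3 members averaged under 10 TPM, and 19 of the 48 averaged over 100 TPM. Among the D cyclins CCND3 (94.2 ± 9.70 TPM in EV) stood above CCND1 (13.7 ± 0.248 TPM), which stood above CCND2, and their ranges over the EV libraries did not overlap. In EV the SD of CCND1 was the smallest of the 3, although its mean was above that of CCND2.

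**Figure D1:**
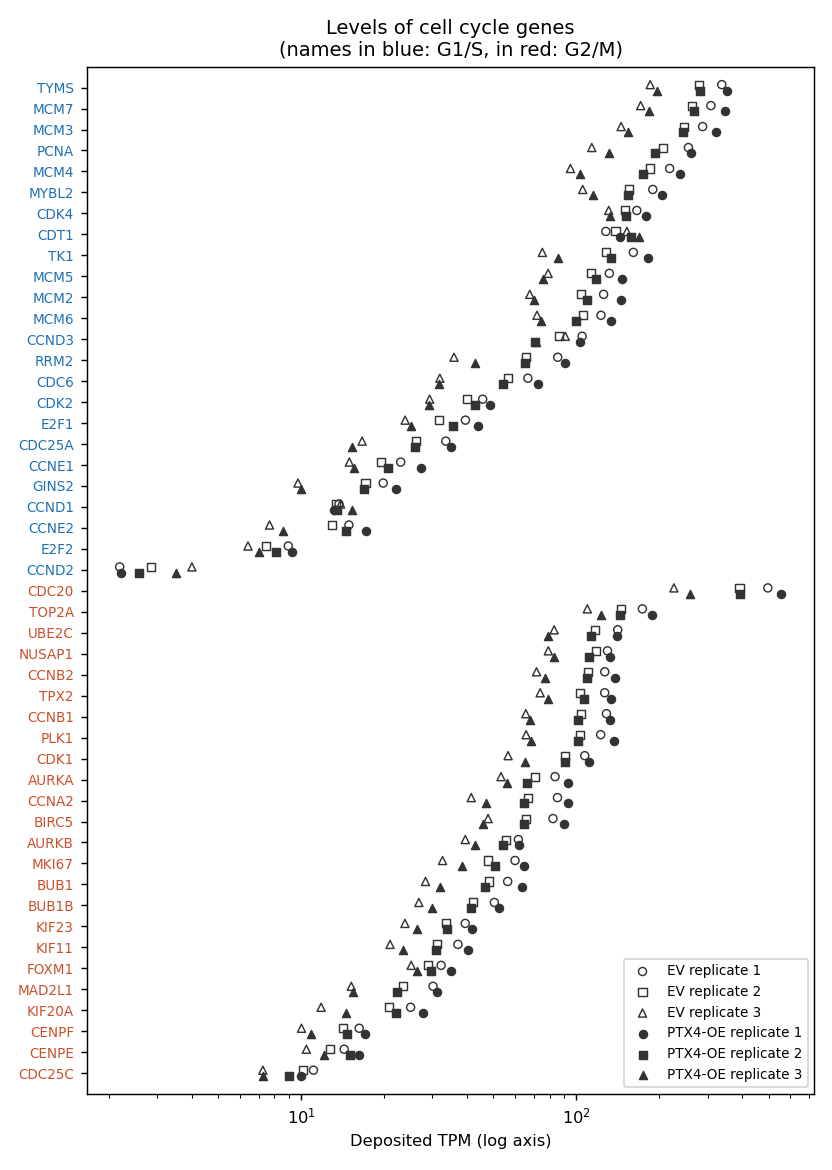
Deposited TPM (log axis) of each of the 48 genes, with G1/S names in blue and G2/M names in red; open symbols are EV and filled symbols PTX4-OE libraries, with a circle for replicate 1, a square for 2 and a triangle for 3. CDC20 stands highest at 226 to 557 TPM and CCND2 lowest at 2.19 to 4.01 TPM, and for most genes the triangles lie to the left of the circles in both constructs.

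In the summed levels of the cell cycle genes the libraries of 1 replicate number resembled each other across constructs, and the levels were lowest in number 3. The 24 G1/S genes summed to 2894, 2457 and 1681 TPM in EV replicates 1, 2 and 3 and to 3147, 2460 and 1769 TPM in the same PTX4-OE replicates. The 24 G2/M genes summed to 2241, 1856 and 1227 TPM in EV and to 2410, 1837 and 1330 TPM in PTX4-OE. Number 1 was highest, number 2 intermediate and number 3 lowest for both groups of genes in both constructs, and the levels of the constructs overlapped. The 48 genes together in replicate 3 held 56.6% of their TPM in replicate 1 in EV and 55.8% in PTX4-OE. In replicate 2 they held 84.0% and 77.3%. The ratio of G2/M to G1/S TPM stayed between 0.730 and 0.774 over the 6 libraries. In RNA from whole cultures, fewer cycling cells and less RNA of these genes per cell cannot be told apart.

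Replicate number was tested in 1 model with construct and number as terms (edgeR's quasi-likelihood F test on both number terms, called at a Benjamini-Hochberg adjusted p under 0.05). Each number had 1 library per construct. The small p-values therefore lean on variances that edgeR moderates across genes. The test called 46 of 48 members, where 51.6% of all genes tested were called. Here and below, a call and its adjusted p come from both number terms together. Each difference and its SE are of number 3 from number 1 unless stated, and give the direction of a call. In number 3 against number 1, 45 of the 48 were called and lower, where 27.4% of all genes were, and 1 was called and higher, where 24.1% were. By more than 2-fold, 17 of the 48 were called and lower (10 G1/S and 7 G2/M), where 1.81% of all genes were. In 45 of 48 the normalised CPM (counts scaled for depth, with TMM factors) was highest in number 1 and lowest in number 3 in both constructs, which held for 24.6% of all genes. The median log2 difference of number 3 from number 1 was -0.95 for the G1/S genes and -0.89 for the G2/M genes, against 0.03 for all genes tested. For number 2 from number 1 the medians were -0.31 and -0.31, against -0.02 for all genes. Within EV alone the medians of number 3 from number 1 were -0.92 and -0.88, and within PTX4-OE alone they were -0.98 and -0.88.

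The labels give all 6 libraries 1 batch value and do not say what a number marks. Depth was alike in numbers 1 and 3, with 32653460 and 32691577 expected counts in EV and 37718207 and 37240283 in PTX4-OE. Without PTX4-OE replicate 1, the library low in mitochondrial counts, the medians of number 3 from number 1 were -0.88 and -0.84, and 45 members were again called and lower. Scaling by library sizes alone moved the median of all genes from 0.03 to 0.15. Genes called higher and lower in number 3 then numbered 5395 and 3611, against 4255 and 4835 with TMM, and the medians of the members were -0.83 and -0.77. What lies behind the difference between numbers was not tested.

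**Figure D2:**
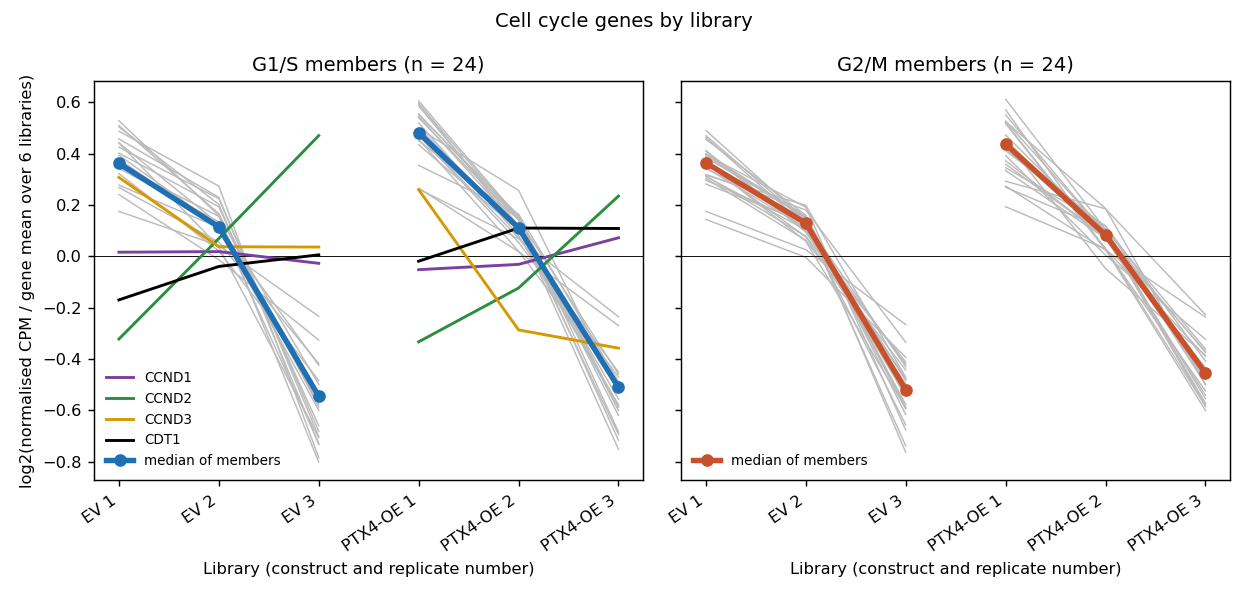
Normalised CPM of each gene in each library relative to that gene's mean over the 6 libraries (log2 axis), for the G1/S genes on the left and the G2/M genes on the right. Thin grey lines join the values of 1 gene within a construct, thick lines the median, and coloured lines mark CCND1, CCND2, CCND3 and CDT1; the numbers are labels without an order. The medians lie above 0 in replicates 1, and in both replicates 3 they lie below it.

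Among the upstream cyclins the 3 D cyclins, which partner CDK4, did not move as 1 group. Values for each construct are given for replicates 1, 2 and 3 in turn. CCND2 (chromosome 12, 4269771 to 4305353, plus strand) had normalised CPM of 10.9, 14.3 and 18.8 in EV and 10.8, 12.5 and 16.0 in PTX4-OE. It was the 1 member called higher in number 3, by a log2 difference of 0.68 (SE 0.099, edgeR adjusted p = 0.000118). CCND1 had 42.8, 42.9 and 41.6 CPM in EV and 40.9, 41.5 and 44.6 CPM in PTX4-OE. All 6 values lay close together, and the log2 difference of number 3 from 1 was 0.04 (SE 0.070, edgeR adjusted p = 0.859). CCND3 (chromosome 6, 41934934 to 42050357, minus strand) had 143.8, 119 and 119 CPM in EV and 139 CPM, 95.3 CPM and 90.7 CPM in PTX4-OE. Number 1 was high in both constructs and numbers 2 and 3 were alike, with a log2 difference of -0.45 between numbers 3 and 1 (SE 0.074, edgeR adjusted p = 0.00013).

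Cyclin E binds CDK2 to start S phase, and CDC25A is the phosphatase that activates that pair. CCNE2 had 28.6, 21.6 and 12.9 CPM in EV and 29.7, 25.2 and 14.6 CPM in PTX4-OE, and CCNE1 had 28.7, 24.8 and 17.9 CPM in EV and 33.1, 25.1 and 17.5 CPM in PTX4-OE. Both were lowest in replicate 3 of both constructs, by -1.09 (SE 0.082) for CCNE2 and -0.81 (SE 0.082) for CCNE1 on the log2 scale. CDC25A had 94.6, 74.6 and 44.2 CPM in EV and 97.0 CPM, 72.0 CPM and 39.5 CPM in PTX4-OE, and its log2 difference was -1.20 (SE 0.066, edgeR adjusted p = 2.07e-08). The kinases are CDK2 and CDK4. CDK2 had 68.6, 61.1 and 42.2 CPM in EV and 72.3, 63.4 and 40.4 CPM in PTX4-OE (log2 difference -0.77, SE 0.065). CDK4 had 207, 188 and 156 CPM in EV and 220.0 CPM, 185 CPM and 152 CPM in PTX4-OE, with a log2 difference of -0.47 (SE 0.060). The replicates of number 3 were below those of number 1 in both constructs for each of these 5 genes, and all 5 were called.

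The transcription factors of the 2 waves were also called. E2F1 had 76.0 CPM, 61.7 CPM and 43.5 CPM in EV and 83.1, 67.2 and 44.2 CPM in PTX4-OE (log2 difference of number 3 from 1 -0.86, SE 0.063). MYBL2, which encodes B-MYB, had 362, 300.1 and 191 CPM in EV and 386, 289 and 201 CPM in PTX4-OE (log2 difference -0.93, SE 0.062). FOXM1 had 82.6, 74.4 and 60.8 CPM in EV and 88.4, 74.3 and 62.1 CPM in PTX4-OE (log2 difference -0.48, SE 0.060). Each was lowest in replicate 3 of both constructs, and the difference was smaller in FOXM1 than in MYBL2. FOXM1 and CDK4 were, with CCND3, the members with the smallest called differences below 0. E2F2 differed by -0.53 (SE 0.072).

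All licensing and fork genes among the members were called and lower in number 3 except CDT1. CDC6 loads the MCM helicase at origins together with CDT1. CDC6 (chromosome 17, 40287879 to 40304657, plus strand) had 124 CPM, 106 CPM and 55.5 CPM in EV and 135 CPM, 98.1 CPM and 55.8 CPM in PTX4-OE. Number 3 was below number 2, which was below number 1, in both constructs (log2 difference of number 3 from 1 -1.22, SE 0.066, edgeR adjusted p = 2.07e-08). CDT1 (chromosome 16, 88803789 to 88809258, plus strand), whose protein is also destroyed in S phase, had 244, 267 and 275 CPM in EV and 270.4, 296 and 295 CPM in PTX4-OE. Replicate 1 was the lowest of each construct, the reverse of CDC6, with a log2 difference of number 3 from 1 of 0.15 (SE 0.059). The F test on both number terms did not call CDT1 (edgeR adjusted p = 0.0777). CDT1 passed that test in 4 of the 12 alternative fits. The differences there were 0.16 without a filter, 0.18 without mitochondrially encoded genes, 0.21 without PTX4-OE replicate 3 and 0.27 with library sizes alone.

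The 6 subunits of the MCM2-7 helicase were all called and lower in number 3, between -0.90 (MCM6) and -1.29 (MCM4) on the log2 scale. MCM4 had 653, 563 and 270.3 CPM in EV and 703, 515 and 284 CPM in PTX4-OE (log2 difference -1.29, SE 0.071, edgeR adjusted p = 2.07e-08). MCM6, whose promoter is printed above, had 341 CPM, 297 CPM and 189 CPM in EV and 366, 270.7 and 190.1 CPM in PTX4-OE. The replicates of number 3 stood apart from the other 4 libraries in both genes. MCM2 (-1.06), MCM3 (-1.11), MCM5 (-0.97) and MCM7 (-0.96) lay between them. PCNA had 202 CPM, 164 CPM and 85.9 CPM in EV and 205 CPM, 151 CPM and 95.6 CPM in PTX4-OE, a log2 difference of -1.16 (SE 0.068). GINS2, a subunit of the replicative helicase complex, differed by -1.17 (SE 0.078).

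Enzymes that supply deoxyribonucleotides followed the fork genes. TK1, thymidine kinase 1, had the smallest p of the members for replicate number. Its CPM was 151, 121 and 67.0 in EV and 169, 123 and 73.1 in PTX4-OE, with a log2 difference of -1.19 (SE 0.061, edgeR adjusted p = 1.9e-08). RRM2, the S phase subunit of ribonucleotide reductase, had 204, 158 and 81.2 CPM in EV and 214, 152 and 94.2 CPM in PTX4-OE (log2 difference -1.26, SE 0.067). TYMS differed by less, -0.94 (SE 0.059), from 358, 295 and 187 CPM in EV and 368, 292 and 192 CPM in PTX4-OE. For TK1, RRM2 and TYMS alike the highest replicate 3 was below the lowest replicate 2.

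All 24 G2/M genes were called and lower in number 3, between -0.48 (FOXM1) and -1.20 (CDC20) on the log2 scale. CDC20 had 543, 430.3 and 235 CPM in EV and 600 CPM, 422 CPM and 261 CPM in PTX4-OE (log2 difference -1.20, SE 0.067, edgeR adjusted p = 2.07e-08). CCNA2, cyclin A2, had 168, 133 and 77.4 CPM in EV and 181, 124 and 84.9 CPM in PTX4-OE (log2 difference -1.11, SE 0.066). CCNB1, cyclin B1, had 179, 146 and 86.6 CPM in EV and 182, 139 and 87.3 CPM in PTX4-OE (log2 difference -1.05, SE 0.059). The replicates of 1 number were close between constructs in these 3 genes, and the replicates of number 3 were the lowest. Their kinase CDK1 differed by -0.93 (SE 0.063) and CCNB2 by -0.91 (SE 0.061).

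Of the mitotic kinases PLK1 had 184, 156 and 93.4 CPM in EV and 202, 149 and 94.4 CPM in PTX4-OE, a log2 difference of -1.04 (SE 0.063). AURKA, which acts at spindle poles, had 122 CPM, 104 CPM and 74.1 CPM in EV and 135 CPM, 95.3 CPM and 75.4 CPM in PTX4-OE (-0.78, SE 0.067). AURKB, the kinase of the chromosomal passenger complex, had 45.4, 40.9 and 27.7 CPM in EV and 45.0 CPM, 40.2 CPM and 29.1 CPM in PTX4-OE (-0.67, SE 0.069). Its partner BIRC5, survivin, differed by -0.99 (SE 0.065). The checkpoint genes BUB1 (-1.09), BUB1B (-0.95) and MAD2L1 (-1.09) differed by about as much as PLK1. BUB1 had 157, 136 and 74.5 CPM in EV and 174, 127 and 81.0 CPM in PTX4-OE.

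Motor and spindle genes spanned a wider range. KIF20A, a kinesin of cytokinesis, had 56.2, 47.4 and 25.1 CPM in EV and 61.4, 48.6 and 30.2 CPM in PTX4-OE (log2 difference -1.09, SE 0.072). KIF11, which separates the spindle poles, had 139 CPM, 119 CPM and 75.2 CPM in EV and 150.1 CPM, 115 CPM and 81.1 CPM in PTX4-OE (-0.89, SE 0.062). CENPE, the kinetochore kinesin, had 96.7, 87.3 and 66.6 CPM in EV and 107 CPM, 99.5 CPM and 74.8 CPM in PTX4-OE (-0.53, SE 0.058). The replicates of number 3 were the lowest of both constructs in all 3, with the smaller difference in CENPE. KIF23 (-0.76), CENPF (-0.77), NUSAP1 (-0.79), TPX2 (-0.86) and UBE2C (-0.87), the ubiquitin-conjugating enzyme of the anaphase promoting complex, lay between KIF20A and CENPE. CDC25C differed by -0.62 (SE 0.101).

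MKI67 and TOP2A are widely used as markers of proliferating cells. MKI67 (chromosome 10, 128096659 to 128126423, minus strand) had 552, 446 and 284 CPM in EV and 585, 455 and 330.4 CPM in PTX4-OE (log2 difference -0.89, SE 0.066, edgeR adjusted p = 1.78e-07). TOP2A, topoisomerase II alpha, had 753, 637 and 449 CPM in EV and 801, 612 and 488 CPM in PTX4-OE (log2 difference -0.73, SE 0.068, edgeR adjusted p = 1.46e-06). Replicate 3 was the lowest of both constructs for both markers, and in each number the EV and PTX4-OE values were nearer to each other than to those of another number.

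The difference between numbers 3 and 1 was of similar size in the 2 constructs, gene by gene. In 43 of 48 members it differed by less than 0.2 on the log2 scale between EV and PTX4-OE. Across the 48 genes the 2 sets of differences had Pearson's r of 0.954 and Spearman's rho of 0.890, given as a description because genes that share 4 libraries are not independent. CCND3 differed most between constructs, with -0.27 in EV and -0.62 in PTX4-OE. Whether a number's effect depends on the construct could not be tested, since 6 libraries leave no residual degrees of freedom for such a term.

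**Figure D3:**
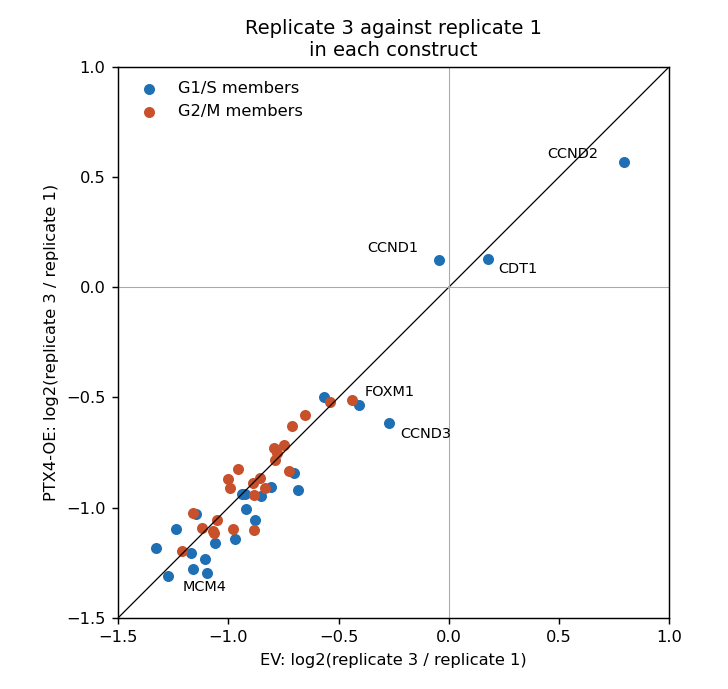
Log2 ratio of replicate 3 to replicate 1 for each of the 48 genes in EV (horizontal axis) and in PTX4-OE (vertical axis), with G1/S genes in blue and G2/M genes in red; the diagonal marks equal values. Most genes lie in the lower left near the diagonal, MCM4 lowest, and CCND2 lies alone at the upper right at 0.79 in EV and 0.57 in PTX4-OE.

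PTX4-OE against EV, the comparison of the study's design, asked which transcripts PTX4 overexpression changes, and none of the 48 genes was called. Without a block for replicate number edgeR called 0 of 48 members, where 0.00567% of all genes tested were called, which was PTX4 alone. At an unadjusted p under 0.05 it had 0 of 48 members, where 0.743% of all genes passed. DESeq2 and limma-voom also called 0 members, where over all genes DESeq2 called 1 higher and 2 lower and limma-voom called 0. At an unadjusted p under 0.05 both had 0 members, where 129 and 145 of 17625 genes passed. With so few genes passing, 0 members is near the background. With replicate number as a block edgeR again called 0 of 48 members, where 0.267% of all genes were called (5 higher and 42 lower). With the block 6 of 48 members had an unadjusted p under 0.05, where 8.79% of all genes did. The median log2 fold change was 0.04 for the G1/S genes and 0.04 for the G2/M genes, against 0.01 for all genes tested. With the block the medians were 0.03 and 0.04, against 0.01.

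The block changed the precision far more than the values. The median SE of the members was 0.295 without the block and 0.053 with it, against 0.20 and 0.082 over all genes tested. With the block every member's 95% confidence interval lay between -0.38 and 0.29 on the log2 scale. Without it the intervals lay between -0.94 and 0.98, so in neither fit did the interval of a member reach a 2-fold change. The intervals are per gene, and edgeR moderates the variances behind them across genes.

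The sign of the small differences depended on the pair of libraries. The log2 fold change was above 0 in 37 of 48 members, a larger share than the 9339 of 17625 genes tested. In the pairs of numbers 1, 2 and 3 the members higher in PTX4-OE were 42, 12 and 36 of 48. Over all genes tested they were 9639, 8622 and 8795 of 17625, so the members moved together more than the background. The median differences of the pairs were 0.10, -0.04 and 0.03 for the G1/S genes and 0.09, -0.04 and 0.07 for the G2/M genes. Higher in all 3 pairs were 10 of 48 members, where 16.4% of all genes were, and lower in all 3 were 4 of 48, where 14.2% were. In 0 of 48 members were the libraries of the 2 groups separate, where 4.12% of all genes were. Leaving out EV replicate 3 or PTX4-OE replicate 1 left 3 of 48 members above 0, and leaving out EV replicate 1 or PTX4-OE replicate 3 left 45 of 48.

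CCND3 had the lowest fold change of the members, and in the values given above PTX4-OE was below EV in each number. The log2 fold change was -0.23 without the block (SE 0.183) and -0.25 with it (SE 0.060, 95% interval -0.38 to -0.12, edgeR adjusted p = 0.117). In the pairs of numbers 1, 2 and 3 it was -0.05, -0.32 and -0.39, and the groups overlapped, with both replicates 1 high. With the block and without the pair of number 1 CCND3 was called, at -0.36 (edgeR adjusted p = 0.00124). That fit called 30 genes higher and 58 lower of 18068 tested. CCND3 was the single member called in any of the 18 alternative fits of this comparison.

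CENPE had the highest fold change, 0.17 (SE 0.186) without the block and 0.17 (SE 0.047, edgeR adjusted p = 0.223) with it. CCNE2 (0.14), CDT1 (0.13) and KIF20A (0.12) came next without the block, and all 4 were higher in PTX4-OE in each of the 3 pairs. With the block the fold change of CCNE2 was 0.15 (SE 0.067, edgeR adjusted p = 0.554), that of KIF20A 0.14 (SE 0.059, edgeR adjusted p = 0.518) and that of CDT1 0.13 (SE 0.048, edgeR adjusted p = 0.392). By pair of numbers 1, 2 and 3 the log2 difference was 0.06, 0.22 and 0.17 for CCNE2, 0.15, 0.15 and 0.10 for CDT1 and 0.13, 0.03 and 0.26 for KIF20A. On the negative side CCND2 was at -0.16, CDC25C at -0.12 and UBE2C at -0.05, and with the block their edgeR adjusted p-values were 0.629, 0.759 and 0.810. CDC25C had 15.1, 13.8 and 9.63 CPM in EV and 13.9, 12.4 and 9.27 CPM in PTX4-OE, and UBE2C had 55.0 CPM, 44.3 CPM and 30.9 CPM in EV and 53.5, 43.5 and 28.4 CPM in PTX4-OE. In both genes PTX4-OE was slightly below EV in each number, while the range over numbers was several times wider. None of these 7 genes was called in any fit of this comparison.

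**Figure D4:**
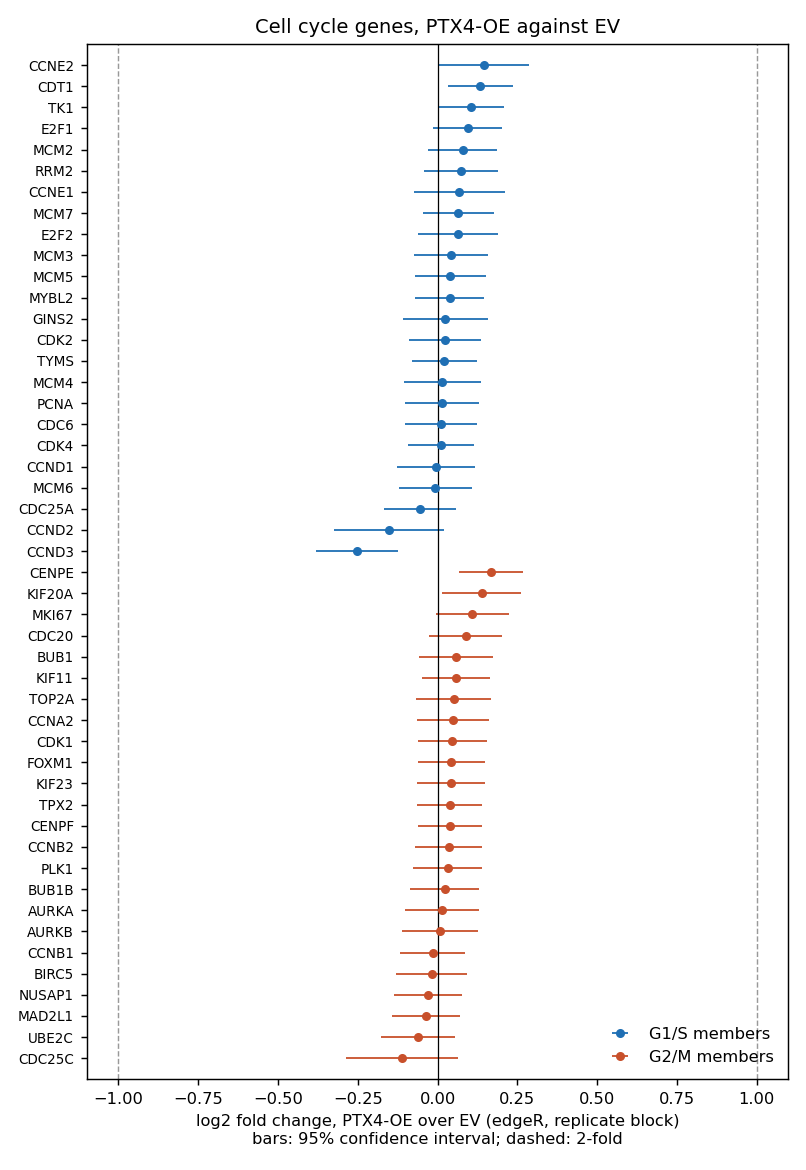
Log2 fold change of PTX4-OE over EV for each gene from the edgeR fit with replicate number as a block, with bars for the 95% confidence interval; G1/S genes are blue, G2/M genes red, and dashed lines mark a 2-fold change. The points lie between -0.25 (CCND3) and 0.17 (CENPE), and no bar reaches a dashed line.

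Further genes of the same pathways were mostly lower in number 3 as well, where 27.4% of all genes tested were called lower and 24.1% higher. Of 36 further origin and fork genes 34 were called and lower in number 3, 0 were higher and ORC4 and ORC5, subunits of the origin recognition complex, were not called; the median was -0.81. UNG, an enzyme that removes uracil from DNA, differed most at -1.35 (SE 0.081, edgeR adjusted p = 2.91e-08). Of 37 further mitotic genes 37 were called and lower, with a median of -0.72 and a range from -0.23 (SMC4, a condensin subunit) to -1.23 (SPC24, a kinetochore subunit). Of 14 genes of the anaphase promoting complex and its partners 12 were called and lower, with a median of -0.41, and ANAPC10 and FZR1 were not called. For PTX4-OE against EV, edgeR called 0 genes of these lists with or without the block. The largest fold changes among them were POLA1 (0.13) and POLE2 (-0.13), polymerase subunits, KIF4A (0.12) and TTK (0.10), mitotic genes, and FZR1 (0.13) and ANAPC10 (0.11). ORC4, ORC5, UNG, SMC4 and SPC24 were singled out after their values were seen.

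The regulators upstream gave mixed results. Of 13 other E2F and MuvB subunits 6 were called and lower in number 3, 2 were higher and 5 were not called, with a median of -0.30. Of all genes tested 27.4% were called lower, 24.1% higher and 51.6% in all. The share called lower was above that background and the share called higher below it, in a list of only 13 genes. TFDP1, the partner of the activating E2Fs, differed by -0.66 (SE 0.064, edgeR adjusted p = 2.18e-06), and E2F5, an E2F that works mainly as a repressor, was higher by 0.56 (SE 0.085, edgeR adjusted p = 8.91e-05). TFDP2 was the other gene called higher, by 0.21. Of 10 CDK inhibitors and pocket proteins CDKN2A and CDKN2B, the p16 and p15 genes, were listed at 0 in all 6 libraries, and 8 passed the filter. In number 3 RBL1, the p107 gene, was called with a difference of -0.68 and CDKN2D, the p19 inhibitor, with -0.43. CDKN1C, the p57 inhibitor, was called and higher by 0.91. CDKN1B, the p27 inhibitor, was called on both number terms together. Its differences from number 1 were -0.09 in number 2 and 0.14 in number 3 (SE 0.072 for number 3). A difference between numbers 3 and 1 alone was not tested. RB1, RBL2, CDKN1A and CDKN2C were not called, and the median of the 8 was -0.04. RB1 had 83.8, 79.3 and 81.1 CPM in EV and 84.2, 77.2 and 81.6 CPM in PTX4-OE, so its replicates of number 3 lay inside the range of the others. For PTX4-OE against EV edgeR called 0 genes of these 2 lists in either fit, and the largest fold changes were CDKN2D (0.24), CDKN1B (0.11), E2F3 (0.14) and TFDP2 (0.12). Genes of these lists outside those 4 were singled out after their values were seen.

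**Figure D5:**
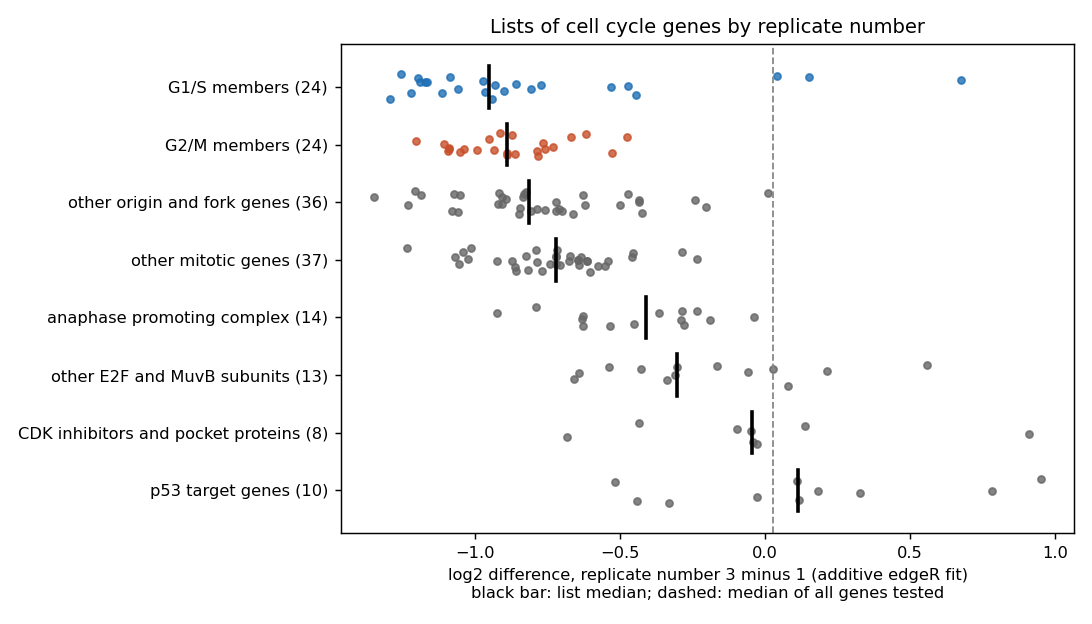
Log2 difference of replicate number 3 from number 1 in the additive edgeR fit for each gene (points, spread vertically at random for legibility) of 8 lists, with the number of genes tested in brackets; the black bar is the list's median and the dashed line the median of all genes tested (0.03). The medians run from -0.95 for the G1/S genes to -0.04 for the CDK inhibitors and pocket proteins and 0.11 for the p53 target genes.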

How the data were processed

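RNA-seq of 6 THP-1 libraries was analysed, 3 EV and 3 PTX4-OE, grouped by title. The authors deposited expected counts, made with STAR and featureCounts on GRCh38 per the submitters' processing notes (FastQC 0.11.5), as 78686 rows, of which 7.94% of values were not whole. The authors also deposited TPM and FPKM, scaled by them for gene length. The annotation, strand setting and versions of STAR and featureCounts are not given in the sources used here. Per the labels' protocols, mRNA was enriched with oligo(dT) beads.

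Genes were matched by Ensembl identifier (61429 named), and 34 pseudoautosomal pairs of rows were summed. Coordinates are from GENCODE 44, where 46 of the 48 member identifiers had the same version. Expected counts were rounded and fitted over all genes with edgeR 4.0.16 in R 4.3.3 (filterByExpr, TMM, quasi-likelihood F test, Benjamini-Hochberg). CPM carry TMM factors. Alternatives used DESeq2 1.42.0, limma 3.58.1 on counts and on log2(TPM + 1) or log2(TPM + 0.1), other scalings, no filter and libraries left out. The fits were tested on simulated data. Python 3.11.15, pandas 2.3.3 and matplotlib 3.10.9 were used.

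No 2 libraries agreed within sampling noise (smallest chi-square per degree of freedom 6.54, EV 2 with PTX4-OE 2). By this measure EV 1 was nearer to EV 2 (12.28) and PTX4-OE 2 (16.83) than to PTX4-OE 1 (19.01). Each of the other libraries was nearest to the one of the same number. Deviations from the group means, PTX4 left out, correlated by 0.755, 0.216 and 0.802 between same-numbered libraries, all over the limit of 0.1, so the numbers were taken to pair libraries. Between unlike numbers the correlation was 0.209 for EV 2 with PTX4-OE 1 and below 0 for the rest. Deviations within a construct sum to 0, which pulls values between unlike numbers down, so values below 0 are no separate evidence of pairing. For number 2 the value of 0.216 was close to that 0.209, so the limit does not set this pair apart.

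The members and lists were chosen with earlier results of these data known. All 48 members could be named, and values by library were given for members of each role, for the 4 largest fold changes of each sign, for any member called and for the 4 smallest p-values of replicate number. Genes of other lists were named if called for the construct or as the 2 of largest fold change.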

Additional observations from a re-analysis of the deposited data

How the results depend on the processing

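The count of members called for PTX4-OE against EV was 0 in 17 of 18 alternatives and 1 with the replicate block and without the pair of number 1 (CCND3). Over all genes that fit called 30 higher and 58 lower of 18068. Alternatives without the block called at most 1 gene higher and 2 lower, so 0 members there is near the background. With the block, 8 were higher and 15 lower without the pair of number 2, and 41 and 167 without that of number 3. The replicate block changed no other call of a member, while over all genes it moved the calls from 1 to 47. Without single libraries the median log2 fold change ran from -0.19 to 0.26 for G1/S genes and from -0.19 to 0.22 for G2/M genes. The SD between replicates (0.486 and 0.454) includes the difference between numbers, so it cannot judge the size of these shifts. Fits without single libraries unbalance the numbers. With the replicate block and a pair left out the medians ran from 0.0057 to 0.077 and from 0.0064 to 0.078. Without single libraries the fold change changed sign for CCND2 (-0.35 to 0.0596), CCNE2 (-0.12 to 0.41), CDC25C (-0.29 to 0.0265), KIF20A (-0.15 to 0.35) and UBE2C (-0.26 to 0.15), and it kept its sign in all 5 with a pair left out under the block. The number of members called for replicate number was 46 or 47 in all 12 alternatives. Over all genes these fits called 2614 to 5395 higher and 3611 to 4900 lower, of 17614 to 34312 tested. Without single libraries CCND1 differed between numbers 3 and 1 by -0.0084 to 0.12. Library sizes alone, for replicate number, was chosen after seeing the data. The members' summed level in number 3 was 56.2% of that in number 1 by TPM and 57.3% by FPKM. Without the filter 34312 genes were tested. The cause of these changes was not tested. The 3 libraries a group and the spread between numbers limit the precision, as the SEs show.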

Other observations

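Genes outside the cell cycle also differed by replicate number, and not in 1 direction. Of 10 p53 target genes 3 were called and higher in number 3 than in number 1, 2 were lower and 5 were not called (edgeR), with a median log2 difference of 0.11. Of all genes tested 24.1% were called higher and 27.4% lower, so these counts are near the background. BBC3, which encodes the apoptosis protein PUMA, had 6.13, 7.26 and 13.0 normalised CPM in replicates 1, 2 and 3 of EV and 7.65, 9.50 and 13.6 CPM in PTX4-OE. It was higher by 0.95 (SE 0.121), and BTG2, an antiproliferative gene, by 0.78 (SE 0.201). MDM2, the ubiquitin ligase of p53, was called with a difference of -0.33 (SE 0.065). CDKN1A, the p21 gene, was not called.

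Of 9 monocytic markers tested 5 were called and lower in number 3, 0 were higher and 4 were not called, with a median of -0.31. The share called in either direction is near the 51.6% of all genes tested. By direction 27.4% of all genes were called lower and 24.1% higher, so this list of 9 leaned lower. LYZ, lysozyme, had 48.2, 28.6 and 26.2 CPM in EV and 61.5, 23.2 and 16.9 CPM in PTX4-OE, and CSF1R, the receptor of macrophage colony-stimulating factor, had 55.1, 46.8 and 32.3 CPM in EV and 45.6, 36.5 and 27.0 CPM in PTX4-OE. With the block CSF1R (-0.30, edgeR adjusted p = 0.0385) and MPO, myeloperoxidase (-0.54, edgeR adjusted p = 0.00798), were called lower in PTX4-OE. Of 13 mitochondrially encoded mRNAs 12 were called and higher in number 3, with a median difference of 0.13 within EV and 0.91 within PTX4-OE, whose replicate 1 was low in these RNAs. MT-ND1 was called lower in PTX4-OE with the block (-0.52, edgeR adjusted p = 0.0385). SPI1, the myeloid factor PU.1, had 230.3, 217 and 223 CPM in EV and 226, 205 and 212 CPM in PTX4-OE and was not called. Genes other than BBC3, BTG2, CSF1R, MPO and MT-ND1 were singled out after their values were seen.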
